A study of Mus musculus with 6 samples.

Results

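The 10 spindle kinesins examined here are Kif11, Kif15, Kif18a, Kif18b, Kif20a, Kif20b, Kif22, Kif23, Kif4 and Kif2c. They were chosen by name from the 51826 gene identifiers of each count file, through the GENCODE M21 annotation of the mouse genome (mm10). All 10 were found and all 10 passed the filter on low counts. The RNA came from testis of C57BL/6J mice aged 8 weeks, in 2 groups, KIFC1 knockout and wild type, with 3 samples in each. The sources used here do not give how the knockout allele was made, whether a Cre or transgene was involved, or whether each sample is 1 animal. The p-values therefore set the difference between groups only against the spread of these samples within groups, and that spread may be technical. Kifc1 encodes a minus-end-directed motor of the spindle, and the study asks how testis transcripts differ when it is lost.

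Spindle kinesins are motor proteins that use ATP to walk along microtubules or to take apart their ends. Most act in both mitosis and meiosis. Some slide antiparallel microtubules to push the poles apart, some trim microtubule ends so that chromosomes align, some ride on chromosome arms, and some bundle the midzone between separating chromosomes and recruit the cytokinesis machinery. In the testis they are used by dividing spermatogonia and by spermatocytes in the meiotic divisions, and midzone components also help to form the intercellular bridges that join germ cells.

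Of the 10 spindle kinesins, 2 rose in knockout testes and 0 fell. They were Kif20b, a kinesin of late division and cytokinesis, at a log2 fold change of 0.93 (SE 0.19), and Kif15, a motor that works beside Kif11 in holding spindle poles apart, at 0.69 (SE 0.15). The edgeR quasi-likelihood test over all genes, with Benjamini-Hochberg adjustment, called 8.23% of 21518 genes at an adjusted p under 0.05, with 3.11% higher and 5.12% lower in knockout. The other 8 members did not pass this threshold. Their log2 fold changes, knockout over wild type, ran from -0.61 for Kif22, which encodes a chromosome-arm motor, to 0.50 for Kif18a, which encodes a regulator of chromosome alignment. The median over the 10 members was 0.18, and the median over all genes tested was -0.01. Both calls were lost, at an edgeR adjusted p of 0.119 for Kif20b and 0.2 for Kif15, once each library's trends with exon GC content and length were removed, a setting under which 0.0837% of all genes were called, 0.0186% higher and 0.0651% lower. With GC trends alone removed 0 members were called, against 0.0372% of all genes. With GC and length trends removed, the median log2 fold change was -0.01 over the 10 members and 0.01 over all genes tested. DESeq2 called the same 2 members, against 18.2% of the 18172 genes to which it gave an adjusted p, 8.49% higher and 9.7% lower. In bulk tissue, fewer cells of a type and less RNA per cell cannot be told apart.

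**Figure D1:**
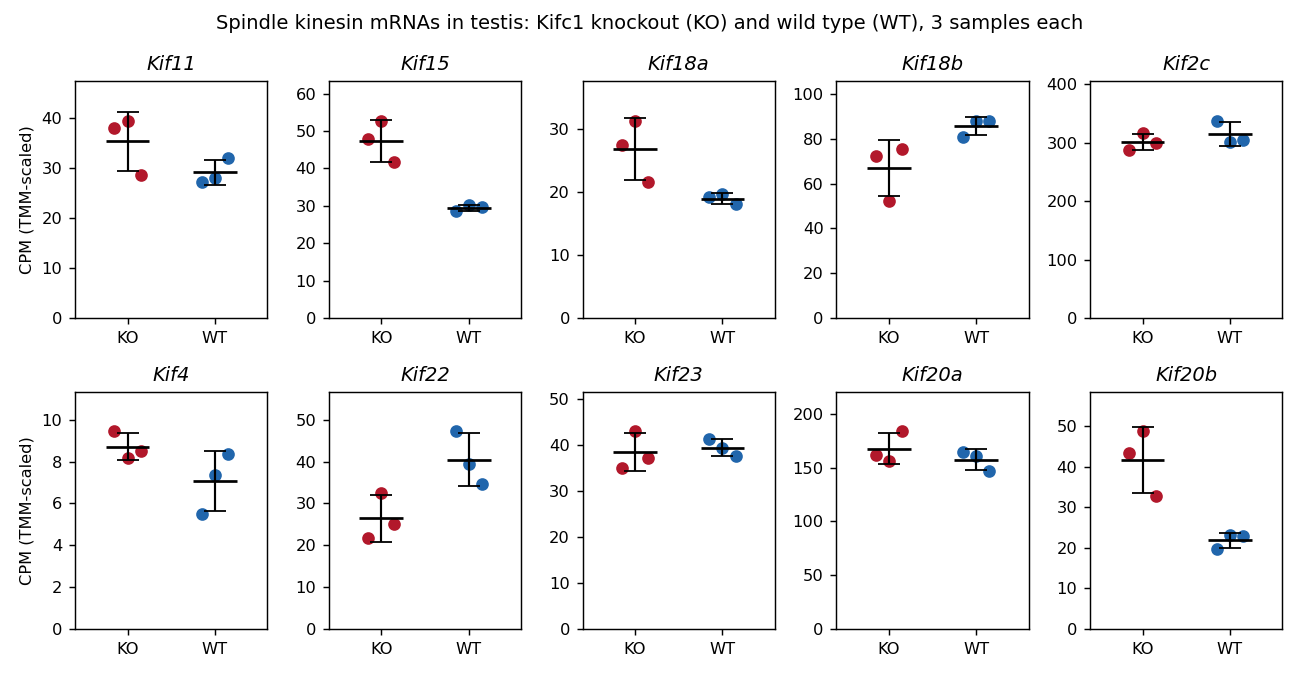
Levels of the 10 spindle kinesin mRNAs, in TMM-scaled CPM, the counts per 1000000 counts of a library (vertical axis from 0), in 3 Kifc1 knockout (KO, left) and 3 wild-type (WT, right) samples. Points are samples, and bars are the mean and SD. The groups are apart for Kif15, Kif18a and Kif20b (knockout higher) and for Kif18b and Kif22 (knockout lower).

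The libraries held 29274603 to 38703606 counts, and the floor of 3 counts, which covers counting error alone, is 0.0775 to 0.102 CPM. Kifc1 itself stood at 0.326, 0.737 and 0.282 CPM in knockout 1, 2 and 3, against 15.5, 16.1 and 14.7 CPM in wild type 1, 2 and 3. Its log2 fold change was -5.09 (SE 0.35, edgeR adjusted p = 0.00378). Kifc5b is a near copy of Kifc1, with 2312 aligned bases at 96.8% identity, so some of these counts may belong to it. Libraries differed along GC content within and between groups. The Spearman correlation across genes between a library's deviation and GC content was -0.281, -0.677 and -0.128 in knockout 1, 2 and 3 and 0.269, 0.533 and 0.526 in wild type 1, 2 and 3. It was negative in every knockout library and positive in every wild-type library. Library trends and genotype differences along GC content therefore cannot be told apart, and removing the trends removes both. Mitochondrial genes held 1.54% to 5.74% of counts in knockout and 0.661% to 0.935% in wild type. Without mitochondrial genes, the edgeR adjusted p was 0.0327 for Kif15 and 0.0248 for Kif20b.

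Every level of the spindle set is well above the counting floor. The 10 genes together held 24128 to 27564 counts in the knockout libraries and 22021 to 28997 in the wild-type libraries. Their summed level was 745.5, 781.5 and 754.9 CPM in knockout, against 772.4, 737.9 and 723.7 CPM in wild type. The ranges overlap, with means of 760.6 ± 18.7 CPM in knockout and 744.7 ± 25 CPM in wild type (SD, n = 3 each).

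Per kilobase of annotated exon, Kif2c was the most abundant member and Kif4 the least in both groups. Kif2c, the microtubule depolymerase also called MCAK, made up 44.3% ± 1.6 of the summed per-length level in knockout and 45.5% ± 1.47 in wild type (SD, n = 3 each). Kif20a made up 24.8% ± 1.93 in knockout and 22.9% ± 0.846 in wild type, and Kif18b 12.0% ± 2.29 in knockout and 15.1% ± 1.22 in wild type. In knockout the order of mean levels was Kif2c (69.1 CPM per kilobase), Kif20a (38.6), Kif18b (18.7), Kif20b (5.98), Kif22 (5.39), Kif23 (4.87), Kif11 (4.72), Kif15 (4.31), Kif18a (2.72) and Kif4 (1.58). The sample ranges of neighbours overlapped only in the stretch of 5 genes that begins with Kif20b and ends with Kif15, where each neighbouring pair overlapped. In wild type the order was Kif2c (72.2 CPM per kilobase), Kif20a (36.3), Kif18b (24.0), Kif22 (8.25), Kif23 (5.0), Kif11 (3.9), Kif20b (3.14), Kif15 (2.67), Kif18a (1.92) and Kif4 (1.28), with no overlap between neighbours. Kif20b was number 4 in knockout and number 7 in wild type. Exons of all annotated transcripts were merged for these lengths, so a gene with unused long exons is understated.

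The motors that push the poles apart are Kif11 and Kif15. Kif11 (chromosome 19, 37376403 to 37421859, plus strand) is the main bipolar motor that slides antiparallel microtubules, and its outward push is the force that KIFC1 opposes. Kif11 stood at 37.8, 39.4 and 28.5 CPM in knockout 1, 2 and 3, against 27.2, 28.0 and 32.0 CPM in wild type. Knockout 1 and 2 were above all wild-type samples and knockout 3 was among them. The log2 fold change was 0.28 (SE 0.18, 95% interval -0.12 to 0.68, edgeR adjusted p = 0.344).

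Kif15 (chromosome 9, 122951046 to 123018733, plus strand) encodes a motor that can partly replace Kif11 when that motor is inhibited, as known from human cells. It stood at 47.9, 52.8 and 41.6 CPM in knockout, against 28.6, 30.2 and 29.6 CPM in wild type. Every knockout sample was above every wild-type sample, and wild type hardly varied (47.4 ± 5.59 CPM in knockout and 29.5 ± 0.812 CPM in wild type, SD, n = 3 each). Kif15 rose 1.61-fold (95% interval 1.27 to 2.04, edgeR adjusted p = 0.032, DESeq2 adjusted p = 0.00118). The edgeR adjusted p was 0.0626 with library-size scaling and 0.0502 without the filter on low counts. It was 0.13 without knockout 1, 0.0313 without knockout 2, 0.0548 without knockout 3, and 0.0864, 0.134 and 0.0865 without wild type 1, 2 and 3, while the log2 fold change stayed between 0.60 and 0.79.

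The motors that set microtubule length spanned both directions. Kif18a (chromosome 2, 109280738 to 109341747, plus strand) damps chromosome movements at the metaphase plate, and loss of its function depletes germ cells in mice. Kif18a stood at 27.3, 31.3 and 21.6 CPM in knockout, against 19.1, 19.6 and 18.0 CPM in wild type. The groups did not overlap and the log2 fold change was 0.50 (SE 0.18, 95% interval 0.09 to 0.91, edgeR adjusted p = 0.118). Such separation was common: 32.7% of all genes tested had groups that did not overlap, 14.6% with knockout higher and 18.1% with knockout lower, against 5 of the 10 members, 3 higher and 2 lower.

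Its close relative Kif18b (chromosome 11, 102905529 to 102925124, minus strand) acts on astral microtubules together with Kif2c. It stood at 72.5, 52.4 and 75.4 CPM in knockout, against 80.9, 87.8 and 88.1 CPM in wild type. All knockout samples were below all wild-type samples, with knockout 2 the lowest. The log2 fold change was -0.36 (SE 0.17, 95% interval -0.74 to 0.02, edgeR adjusted p = 0.211).

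Kif2c (chromosome 4, 117159639 to 117182639, minus strand) takes tubulin off microtubule ends and helps to correct faulty kinetochore attachments. It stood at 288, 316 and 300.2 CPM in knockout, against 338, 302 and 306 CPM in wild type. The groups overlapped, and the difference was small relative to their spread, at a log2 fold change of -0.06 (SE 0.13). The 95% interval of its fold change, 0.779 to 1.18, bounds how large a difference these samples allow (edgeR adjusted p = 0.793).

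The motors of chromosome arms, called chromokinesins, were Kif22 and Kif4. Kif22 (chromosome 7, 127027729 to 127042471, minus strand) pushes chromosome arms away from the poles. It stood at 21.6, 32.6 and 25.1 CPM in knockout, against 47.3, 39.4 and 34.7 CPM in wild type. All knockout samples were below all wild-type samples, with knockout 2 the nearest to them. The log2 fold change was -0.61 (SE 0.20, 95% interval -1.07 to -0.16, edgeR adjusted p = 0.0914, DESeq2 adjusted p = 0.0562). Without knockout 2 it was -0.79 with an edgeR adjusted p of 0.0308, and without any other single sample the adjusted p lay between 0.114 and 0.286. Leaving out knockout 2 raised the number of all genes called to 3149, against 1770 with every sample. An antisense gene of few counts, Gm31749, shares 96 exon bases with Kif22.

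Kif4 (X chromosome, 100625737 to 100727214, plus strand), the mouse counterpart of human KIF4A, binds chromosomes and, at anaphase, the midzone. The X chromosome is transcriptionally silenced in spermatocytes during the meiotic prophase. Kif4 had 272 to 348 counts in knockout libraries and 188 to 289 in wild-type libraries, the fewest of the set. It stood at 9.45, 8.19 and 8.51 CPM in knockout, against 5.52, 7.36 and 8.35 CPM in wild type. The groups overlapped through wild type 3, and the log2 fold change was 0.30 (SE 0.21, 95% interval -0.18 to 0.79, edgeR adjusted p = 0.401). Its exons share 832 bases with Pdzd11 on the other strand, and the sources used here do not give the strand setting of the counting, so its level is uncertain.

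Among the midzone and cytokinesis motors, Kif20b stood apart. Kif20b (chromosome 19, 34922361 to 34975745, plus strand) localises to the midbody and takes part in the final separation of daughter cells. It stood at 43.3, 48.7 and 32.8 CPM in knockout, against 19.6, 23.1 and 22.8 CPM in wild type. The lowest knockout sample, number 3, was above the highest wild-type sample (41.6 ± 8.08 CPM in knockout and 21.8 ± 1.94 CPM in wild type, SD, n = 3 each). Kif20b rose 1.91-fold (95% interval 1.42 to 2.56, edgeR adjusted p = 0.0246, DESeq2 adjusted p = 0.000185). The edgeR adjusted p was 0.109, 0.0259 and 0.0418 without knockout 1, 2 and 3, and 0.0781, 0.101 and 0.0651 without wild type 1, 2 and 3, with a log2 fold change between 0.80 and 1.09.

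Kif20a (chromosome 18, 34624613 to 34633277, plus strand) carries the chromosomal passenger complex to the midzone. It stood at 162, 157 and 184 CPM in knockout, against 165, 161 and 147 CPM in wild type. The groups overlapped, and the log2 fold change was 0.09 (SE 0.14, 95% interval -0.22 to 0.40, edgeR adjusted p = 0.716). Its exons share 1271 bases with Cdc23 on the other strand, so its level is uncertain.

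Kif23 (chromosome 9, 61915905 to 61946774, minus strand) is the motor subunit of centralspindlin, the complex that starts the cleavage furrow and remains in germ cell bridges. It stood at 35.1, 43.0 and 37.2 CPM in knockout, against 41.3, 39.4 and 37.7 CPM in wild type. The knockout samples lay on both sides of wild type, and the log2 fold change was -0.04 (SE 0.15, 95% interval -0.38 to 0.30, edgeR adjusted p = 0.898).

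Within the set, knockout samples were not ordered alike. Knockout 2 had the highest of the 3 knockout levels for 7 of the 10 genes and knockout 3 the lowest for 4. Knockout 2 also had the lowest Kif18b level of all samples. Wild type 1 was the lowest of all samples for 4 genes.

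Ratios within a sample are given for 3 pairs of motors that were chosen after their values were seen, so they are a description with no test. The per-length level of Kif20b over Kif20a was 0.166, 0.194 and 0.111 in knockout, against 0.0741, 0.0892 and 0.0969 in wild type. Kif18a over Kif18b was 0.137, 0.217 and 0.104 in knockout, against 0.0858, 0.0812 and 0.0743 in wild type. Kif15 over Kif11 was 0.857, 0.907 and 0.99 in knockout, against 0.711, 0.729 and 0.628 in wild type. The differences in mean log2 ratio, knockout minus wild type, were 0.83 for Kif20b over Kif20a, 0.86 for Kif18a over Kif18b and 0.41 for Kif15 over Kif11. With each library's GC and length trends removed, an alternative chosen after seeing the data, these differences were 0.42, -0.06 and 0.36. Kif18a over Kif18b was then 0.0955, 0.139 and 0.0889 in knockout, against 0.125, 0.11 and 0.0984 in wild type, and Kif20b over Kif20a was 0.14, 0.16 and 0.105 in knockout, against 0.0881, 0.102 and 0.109 in wild type. Both of these overlapped between groups. Kif15 over Kif11 was 0.821, 0.908 and 0.973 in knockout, against 0.758, 0.738 and 0.617 in wild type, without overlap.

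**Figure D2:**
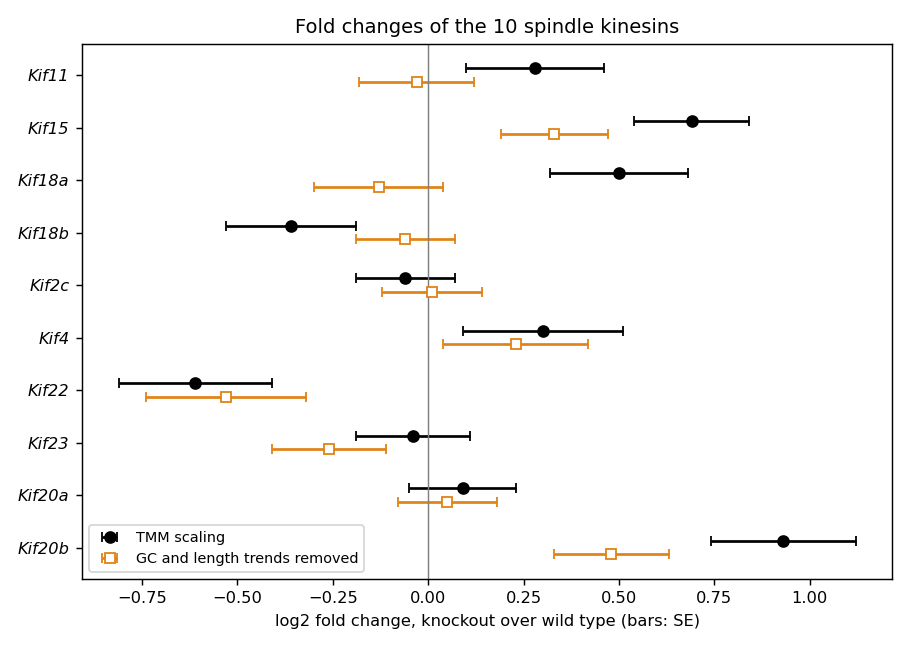
Log2 fold change, knockout over wild type (horizontal axis), of the 10 spindle kinesins with TMM scaling (filled circles) and with each library's GC and length trends removed (open squares). Bars are the SE. Kif20b moves to 0.48, Kif15 to 0.33 and Kif18a to -0.13 when the trends are removed, while Kif22 stays at -0.53.

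The fold changes of the set followed base composition. GC content of the exons ran from 37.3% for Kif18a and 39.0% for Kif20b to 55.0% for Kif18b. Over the 10 genes the log2 fold change had a Pearson r of -0.82 and a Spearman rho of -0.89 with GC content, a description of 10 genes measured in the same 6 libraries. All tested genes had the same relation: their median log2 fold change was 0.53 for genes of 36% to 38% GC and -0.27 for genes of 54% to 56% GC. Kif18a, at 0.50, lay at the median of genes within 2 percentage points of its GC content (0.51). Kif11 at 0.28 also matched its neighbours in GC content (0.28), as Kif2c (-0.06 against -0.05) and Kif20a (0.09 against 0.04) nearly did. Kif18b was at -0.36 against -0.28, Kif4 at 0.30 against 0.08 and Kif23 at -0.04 against 0.19.

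Kif20b, Kif15 and Kif22 lay farther from genes of like composition. Kif20b at 0.93 compares with a median of 0.41 over 1820 such genes, of which 10.3% were called higher. Kif15 at 0.69 compares with 0.28 over 3280 genes, of which 7.53% were called higher. Kif22 at -0.61 compares with -0.06 over 4673 genes, of which 3.81% were called lower. Kif15 and Kif11 have the same GC content, 41.8%, and the 95% intervals of their log2 fold changes overlap, 0.34 to 1.03 for Kif15 and -0.12 to 0.68 for Kif11. Overlap of these intervals does not compare the genes with each other, and their difference was not tested. Their ratio within each sample, a pair chosen after its values were seen, did not overlap between groups.

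With the GC and length trends removed, 0 of the 10 members passed the edgeR threshold, with 2 higher and 1 lower at an unadjusted p under 0.05. At that unadjusted level 22.3% of all genes passed, and 27.1% before the trends were removed, when 3 members were higher and 1 lower. The 3 members were Kif20b (log2 fold change 0.48, SE 0.15, unadjusted p = 0.0108), Kif15 (0.33, SE 0.14, unadjusted p = 0.0389, adjusted p = 0.2) and Kif22 (-0.53, SE 0.21, unadjusted p = 0.0331, adjusted p = 0.188). Kif20b then stood at 35.9, 39.8 and 30.6 CPM in knockout, against 23.9, 26.2 and 26.0 CPM in wild type, still without overlap. Kif15 stood at 40.4, 45.6 and 39.5 CPM in knockout, against 35.5, 33.2 and 31.4 CPM in wild type, also without overlap. With TMM scaling alone, 32.7% of all genes had no overlap. The share with the trends removed was not counted, so these separations of Kif20b and Kif15 have no background. Kif22 stood at 22.0, 34.5 and 25.4 CPM in knockout, against 47.7, 37.7 and 32.9 CPM in wild type. Its groups then overlapped, with knockout 2 above wild type 3. The log2 fold changes of Kif18a (-0.13) and Kif11 (-0.03) changed sign, and Kif18b moved to -0.06.

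**Figure D3:**
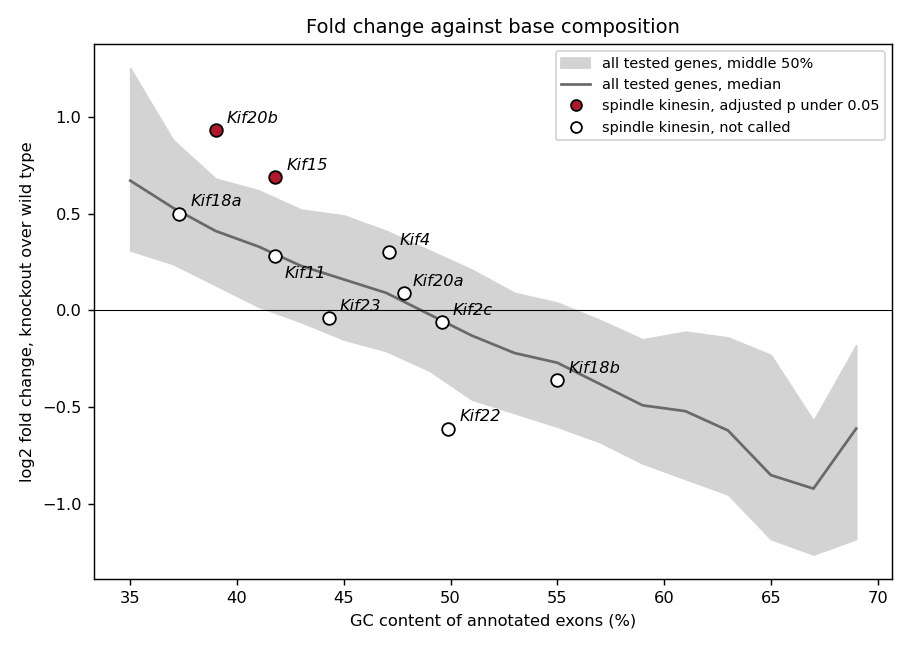
Log2 fold change, knockout over wild type (vertical axis), against exon GC content in percent (horizontal axis). The line and band are the median and interquartile range of all tested genes in bins of GC content, filled points are the called members and open points the others. Kif20b and Kif15 lie above the band, Kif22 below it, and Kif18a and Kif11 near the line.

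Promoter sequences were searched for short motifs. The genes were chosen as motors of dividing cells, so a motif of late cell cycle genes is not independent of that choice. The letters TTTGAA spell the cell cycle genes homology region (CHR), an element near the start of many genes of late cell cycle that is known to bind the DREAM and MuvB complexes, and CCAAT is the box bound by NF-Y. RefSeq promoters (GRCm38.p6, 250 bases before to 50 after the start) were at hand for 9 members, Kif20a not included. TTTGAA stood on either strand in 8 of these 9, against 17.9% of all 32851 promoters of this length. CCAAT stood in 5 of the 9, against 37.4% of all. TTCGAA, a variant of CHR, stood in 0 of the 9, against 1.56% of all. A match of these letters is a description and not evidence of binding.

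The promoters of both genes that rose are shown whole, 5′ to 3′ on the gene's strand, with every TTTGAA, or TTCAAA where it lies on the other strand, in capitals. Kif15 lies at chr9:122950831-122951130 (plus strand) and Kif20b at chr19:34922108-34922407 (plus strand).
Kif15: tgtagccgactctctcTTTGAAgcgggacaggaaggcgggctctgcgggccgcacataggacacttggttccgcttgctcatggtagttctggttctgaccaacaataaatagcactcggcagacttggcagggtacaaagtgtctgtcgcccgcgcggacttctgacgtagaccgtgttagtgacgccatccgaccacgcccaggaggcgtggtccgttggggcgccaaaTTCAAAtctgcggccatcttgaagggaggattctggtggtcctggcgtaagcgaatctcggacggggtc
Kif20b: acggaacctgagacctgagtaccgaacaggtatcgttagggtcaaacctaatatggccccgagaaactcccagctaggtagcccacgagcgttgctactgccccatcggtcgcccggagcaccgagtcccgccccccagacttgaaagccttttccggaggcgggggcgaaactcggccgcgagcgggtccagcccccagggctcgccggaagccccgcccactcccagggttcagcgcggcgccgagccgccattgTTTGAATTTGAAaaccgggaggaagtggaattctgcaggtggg

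Kif15 has one match 19 bases before its start and another at 234 bases before it, and Kif20b has a pair side by side that begin 7 and 13 bases after its start. Neither window holds CCAAT. The members that did not pass the test carry the same letters, shown for comparison in stretches of 40 bases around the match nearest the start, with the match in capitals. They lie at chr19:37376346-37376385 (Kif11, plus strand), chr11:102925099-102925138 (Kif18b, minus), chr7:127042415-127042454 (Kif22, minus), chr9:61946775-61946814 (Kif23, minus), chrX:100626067-100626106 (Kif4, plus) and chr4:117178853-117178892 (Kif2c, minus).
Kif11: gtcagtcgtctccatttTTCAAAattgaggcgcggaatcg
Kif18b: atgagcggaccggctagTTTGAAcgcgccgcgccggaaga
Kif22: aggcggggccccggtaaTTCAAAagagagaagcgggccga
Kif23: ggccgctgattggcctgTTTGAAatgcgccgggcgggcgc
Kif4: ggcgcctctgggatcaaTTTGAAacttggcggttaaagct
Kif2c: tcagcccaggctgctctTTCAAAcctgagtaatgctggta

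The nearest match began 19 bases before the start in Kif11, 17 before in Kif22 and 103 before in Kif2c, and 3, 2 and 19 bases after it in Kif18b, Kif23 and Kif4. The RefSeq start of Kif2c lies 3867 bases inside the start of the M21 gene, and that of Kif4 lies 328 bases inside it. The promoter of Kif18a was the one of the 9 without TTTGAA. Of the genes with these letters, Kif20b (log2 fold change 0.93) and Kif15 (0.69) rose. Kif4 (0.30), Kif11 (0.28), Kif23 (-0.04), Kif2c (-0.06), Kif18b (-0.36) and Kif22 (-0.61), also with them, were not called. Kif18a, without them, was at 0.50 and was not called. A relation between the letters and the fold changes was not tested.

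**Figure D4:**
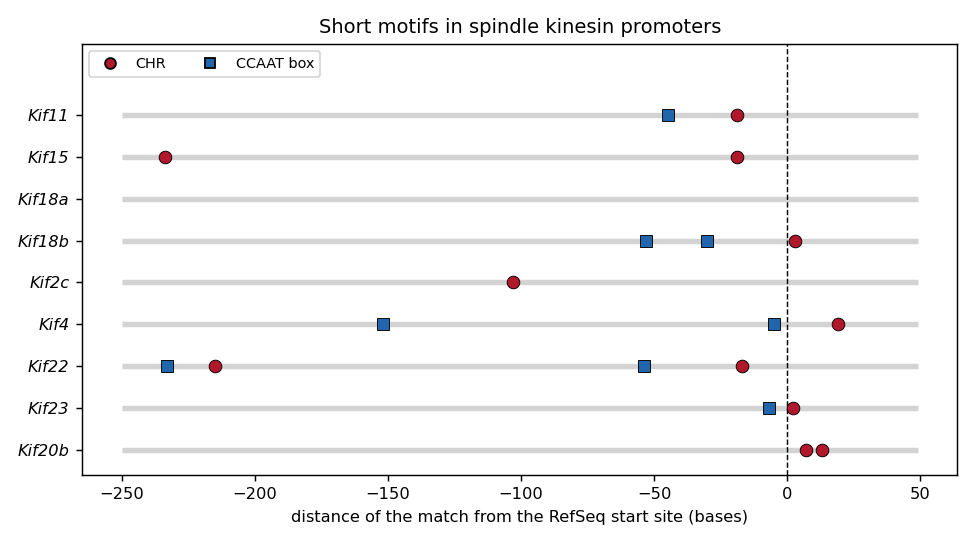
Positions of the CHR letters (circles) and the CCAAT box (squares), on either strand, in the promoters of 9 spindle kinesins, as the distance in bases of the first base of the match from the RefSeq start site (dashed line). Grey bars are the 300 bases searched. For 7 of the 8 promoters with CHR letters a match begins within 19 bases of the start, and the exception is Kif2c.

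Proteins that bind, recruit or phosphorylate these motors were taken as a list of 29 partners and regulators. Of these 29, 1 rose and 0 fell, where edgeR called 3.11% of all genes higher and 5.12% lower, and the median log2 fold change was 0.00. The groups did not overlap for 5 with knockout higher and 9 with knockout lower, against 14.6% and 18.1% of all genes. The one that rose was Sgo2a, which protects centromeric cohesion and brings Kif2c to centromeres. It stood at 50.7, 46.6 and 39.1 CPM in knockout, against 30.3, 28.8 and 30.2 CPM in wild type (log2 fold change 0.61, SE 0.16, edgeR adjusted p = 0.0466), or at 0.23 with the trends removed. Next by p came Ccnb1, which encodes cyclin B1, the activator of the kinase Cdk1 that phosphorylates several of these motors. Ccnb1 stood at 55.4, 88.6 and 63.9 CPM in knockout, against 141, 103 and 92.7 CPM in wild type, without overlap (log2 fold change -0.70, SE 0.22, edgeR adjusted p = 0.0874). With the trends removed Ccnb1 was at -0.89 (SE 0.20, edgeR adjusted p = 0.0732). DESeq2 called 3 of the 29, Sgo2a (DESeq2 adjusted p = 0.00641), Mki67 (0.0166) and Ccnb1 (0.0446), against 18.2% of all genes.

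The partners that follow are named for their role, and were chosen after their values were seen. Mki67, whose product binds KIF15 in human cells, stood at 72.2, 51.5 and 50.3 CPM in knockout, against 19.7, 32.1 and 43.5 CPM in wild type (log2 fold change 0.87, SE 0.28, edgeR adjusted p = 0.0892, DESeq2 adjusted p = 0.0166). Tpx2, which binds Kif11 and Kif15 on the spindle, was at 0.22 on the same scale (SE 0.13, edgeR adjusted p = 0.322). Racgap1, the other subunit of centralspindlin, was at 0.06 (SE 0.17), and Kif23 itself at -0.04. Prc1, the midzone bundler that binds Kif4, was at 0.19 (SE 0.17). Of the chromosomal passenger complex that Kif20a carries, Birc5 was at -0.49 (SE 0.16, edgeR adjusted p = 0.0944) and Cdca8 at -0.38 (SE 0.15). Its kinases Aurkb and Aurkc were at -0.47 (SE 0.20) and -0.42 (SE 0.20), and Incenp was at 0.27 (SE 0.17). With the trends removed Birc5 was at -0.53, Cdca8 at -0.34, Aurkb at -0.28, Aurkc at -0.16 and Incenp at 0.53. None of them was called in either setting.

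**Figure D5:**
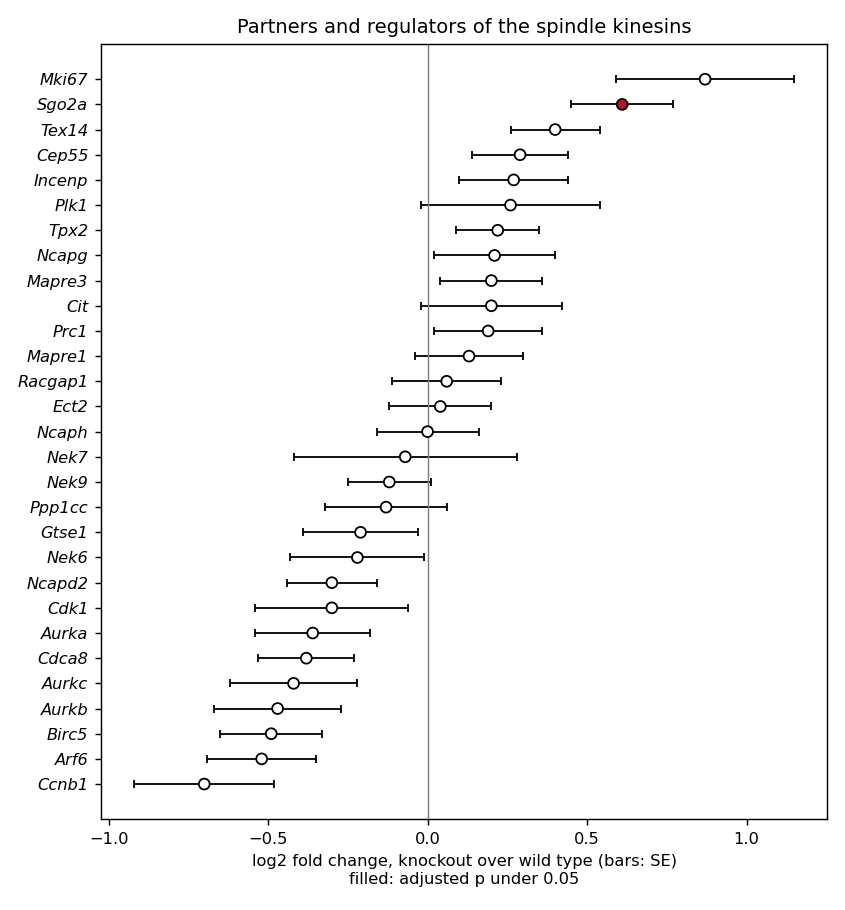
Log2 fold change, knockout over wild type (horizontal axis), of 29 partners and regulators of the spindle kinesins, ordered by value. Bars are the SE, and the filled point, Sgo2a at 0.61, is the one gene with an edgeR adjusted p under 0.05.

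Of the other kinesin genes, 31 of 33 were tested, of which 2 rose and 1 fell, against 3.11% and 5.12% of all genes, at a median log2 fold change of 0.05. Kif2a, a depolymerase of the same class as Kif2c, rose and stood at 309, 280 and 287 CPM in knockout, against 168, 177 and 202 CPM in wild type (edgeR adjusted p = 0.0251). Kif27, which encodes a kinesin linked to motile cilia, rose and stood at 363, 407 and 352 CPM in knockout, against 257, 261 and 268 CPM in wild type (log2 fold change 0.52, SE 0.13, edgeR adjusted p = 0.0466). Kifc3, which encodes a minus-end motor, fell and stood at 65.0, 67.4 and 75.4 CPM in knockout, against 107, 110 and 110 CPM in wild type (edgeR adjusted p = 0.0256). Without the GC and length trends Kif2a was at 0.26, Kif27 at 0.52 and Kifc3 at -0.21 on the log2 scale, and edgeR called 0 of the 31, with 5 higher and 0 lower at an unadjusted p under 0.05, a level that 22.3% of all genes passed in either direction.

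Of 16 regulators of late cell cycle transcription, 2 rose and 0 fell, against 3.11% and 5.12% of all genes, at a median log2 fold change of -0.01. Mybl1, the MYB factor of pachytene spermatocytes, stood at 75.7, 67.3 and 62.7 CPM in knockout, against 38.2, 44.1 and 43.8 CPM in wild type (log2 fold change 0.71, SE 0.15, edgeR adjusted p = 0.028). Rbl2, the p130 pocket protein of the DREAM complex, stood at 133, 108 and 141 CPM in knockout, against 84.0, 86.2 and 76.1 CPM in wild type (log2 fold change 0.63, SE 0.15, edgeR adjusted p = 0.0389). With the trends removed they were at 0.14 and 0.46, and neither was called. Foxm1, an activator of CHR genes chosen after its value was seen, was at -0.03 on the log2 scale (SE 0.21).

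Markers of testis cell types were counted in the same way, where edgeR called 3.11% of all genes higher and 5.12% lower. The summed level of 9 genes of early meiotic prophase was 659 to 841 CPM in knockout and 434 to 480 CPM in wild type, and 3 of them (Smc1b, Sycp2, Sycp1) rose and 0 fell. With the GC and length trends removed, the median log2 fold change of this list was 0.15, against 0.44 before, with Sycp1 at 0.17, Sycp2 at 0.31 and Smc1b at 0.71. Of the 9 log2 fold changes, 5 were then above 0 and 4 below, against 7 and 2 before. The 3 erythroid genes summed to 29.1 to 46.9 CPM in knockout and 47.2 to 84.3 CPM in wild type, and 1, Alas2, fell. For the other 9 marker lists the groups overlapped in summed level. Of 12 spermatogonial genes 0 rose and 1 fell (Sohlh1), of 8 pachytene genes 2 rose (Mybl1, Brdt) and 1 fell (Pou5f2), and of 7 round spermatid genes 1 rose (Spaca7) and 0 fell. Of 9 elongating spermatid genes 1 rose (Smcp) and 2 fell (Prm1, Tnp2), and of 10 Sertoli cell genes 1 rose (Rhox8) and 1 fell (Amhr2). The edgeR test called 0 of 6 Leydig cell, 0 of 5 peritubular myoid, 0 of 6 macrophage and 0 of 5 endothelial genes, with 2, 0, 1 and 0 at an unadjusted p under 0.05, and DESeq2 called 2, 0, 0 and 0. Over all genes, 27.1% had such an unadjusted p and DESeq2 called 18.2%. With the trends removed, edgeR called 0 of the 80 genes of the 11 marker lists, with 17 higher and 4 lower at an unadjusted p under 0.05, a level that 22.3% of all genes passed. No marker was at 0 in every sample, and the part of these markers in the rise of Kif15 and Kif20b was not tested.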

How the data were processed

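The authors deposited a table of counts for each sample, whole numbers of reads by gene without normalization. Per the submitters' processing notes, reads passed through Trimmomatic, HISAT2 and HTSeq with the build mm10. The sources used here do not give versions, annotation release, strand setting or the handling of reads with several matches. No row lacked a gene identifier, and GENCODE M21 (GRCm38) matched 51633 of 51826 identifiers.

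All 6 samples entered a quasi-likelihood fit in edgeR 4.0.16 (R 4.3.3), after filterByExpr and TMM scaling, and genes were called at a Benjamini-Hochberg adjusted p under 0.05 over all genes. Each SE was derived from the F statistic. CPM are TMM-scaled. GC and length trends were splines with 5 degrees of freedom per library, fitted on 12751 genes of mean log2 CPM above 2 (prior count 2) and entered as offsets. Exon GC content and length are of merged exons. The alternatives included DESeq2 1.42.0.

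Members and lists were chosen with earlier results of these data known. Named are the members, Kifc1 and, from each other list, called genes or up to 2 with the smallest p. Further partners and Foxm1 were named outside this rule, after their values were seen. Apart from overlapping genes and the pair Kifc1 and Kifc5b, no other gene shared more than 163 aligned bases at 95% identity or more with a member. No pair of samples in a group was alike within sampling noise (chi-square over degrees of freedom 15.4 to 135.1).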

Additional observations from a re-analysis of the deposited data

How the results depend on the processing

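The number of all genes called moved from 1770 to 1010 without the filter on low counts, 3305 with DESeq2, 8 with GC offsets, 18 with GC and length offsets, 2909 with these offsets and without knockout 2, and 1 to 3149 with 1 sample left out. Spindle kinesins called moved from 2 to 1 with library size alone or no filter, 0 with either set of offsets, 1 (Kif22, lower) with offsets and without knockout 2, and 0 to 3 with 1 sample left out. Other kinesins called moved from 3 to 7 with DESeq2, 0 with offsets, 5 with offsets and without knockout 2, and 0 to 6 with 1 sample left out. Partners called moved from 1 to 0 with library size alone, no filter or offsets, 3 with DESeq2, 4 with offsets and without knockout 2, and 0 to 3 with 1 sample left out. For each list the highest count with 1 sample left out came without knockout 2, where 3149 of all genes were called. Library size alone called 1569 of all genes, and DESeq2 called 18.2% of the 18172 genes with an adjusted p. With 1 sample left out, all genes called numbered 1 without knockout 1, 3149 without knockout 2, 327 without knockout 3, and 5, 1 and 425 without wild type 1, 2 and 3. When 1 sample other than knockout 2 was left out, 0 other kinesins and 0 partners were called. The cause of these moves was not tested. Same-numbered samples did not deviate together (r = -0.47, -0.12 and -0.14), so the numbers are not taken as pairs. With the replicate block 21 genes, 0 spindle kinesins, 0 other kinesins and 0 partners were called, and with the block and the offsets 5, 0, 0 and 0. The members below changed sign in some settings, and edgeR called none of them in those settings. With GC offsets, with GC and length offsets, with these and the block, and with these and without knockout 2, the log2 fold changes were 0, -0.03, -0.03 and -0.08 for Kif11 and -0.06, -0.13, -0.13 and -0.24 for Kif18a. Kif18b was at 0.02 with offsets and without knockout 2. Kif23 was at 0.02, 0 and 0.02 without knockout 1, knockout 3 and wild type 1 (range with 1 sample left out -0.13 to 0.02). Kif2c was at 0.01 with the GC and length offsets, with these and the block, and without wild type 1 (range with 1 sample left out -0.1 to 0.01).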
